A study of Mus musculus with 25 samples.

Results

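The comparison described here set livers of mice that drank 20% mannose for the last 6 weeks of a steatohepatitis regimen (20% therapy) against livers of mice on the same regimen without mannose (FAT-MASH). Its members were chosen by group label: 3 libraries of 20% therapy and 3 of FAT-MASH, 6 of the 25 in the series. All 6 mice were C57BL/6J males, aged 8 weeks at the start and 20 weeks at the end. Both groups received the whole FAT-MASH regimen for 12 weeks: a chow with 41% sucrose, 21.1% fat and 1.25% cholesterol, water with 23.1 g/L fructose and 18.9 g/L glucose, and weekly carbon tetrachloride, a toxin that kills hepatocytes around the central vein. The mannose was dissolved at 20% (w/v) in the drinking water. For reference, 3 libraries each of 3 further groups, all in the same batch by their labels, were used: mice on the regimen with 5% mannose for the last 6 weeks (5% therapy), mice on it with 20% mannose for all 12 weeks (20% prevention), and mice on normal diet. The batch of 18 libraries, fitted together, also held 3 of mice on the regimen with 5% mannose for all 12 weeks (5% prevention). That group is not compared here. Mice of these further groups were likewise aged 8 weeks at the start and 20 weeks at the end. Mice were housed 3 to 5 to a cage and the cage of each mouse is not given in the sources used here, so the p-values measure the spread between these libraries, which may include shared cages. The model joins diet with a toxin, and every treated and untreated liver on the regimen carries both.

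Mannose is a hexose that cells take up through glucose transporters and phosphorylate. Mannose phosphate isomerase (Mpi) turns mannose 6-phosphate into fructose 6-phosphate, an intermediate of glycolysis, and the phosphomannomutases Pmm1 and Pmm2 send it towards the glycan precursor GDP-mannose. The adult liver is a quiescent tissue whose hepatocytes can re-enter the cell cycle after injury or tissue loss. In that state cyclin D1 carries cells past G1, the MCM helicase licenses DNA replication, and the transcription factors B-MYB and FOXM1 switch on the late genes of spindle assembly and cytokinesis.

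Levels are given as CPM, that is counts relative to the library size after TMM scaling, which correct for a few abundant genes taking up reads. Differences are log2 fold changes ± SE, 20% therapy minus FAT-MASH. A gene rose or fell where its p in edgeR's quasi-likelihood test, Benjamini-Hochberg adjusted over all 19571 genes tested, was under 0.05, and each adjusted p below is of this kind. The 6 libraries held between 35583150 and 56010646 counts. On the first principal component of the 18 libraries of the batch (39.4% of variance) the treated libraries lay at 55.35, 29.67 and 49.69 and the FAT-MASH libraries between -14.71 and -10.69. The TMM factors differed between the groups, 1.109 to 1.2 in treated livers and 0.936 to 0.942 in FAT-MASH. The median log2 fold change of all genes was 0.001 with TMM and 0.303 when libraries were scaled by their totals alone, and all changes below are relative to the TMM median.

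Of the 19571 genes, 4195 (21.4%) passed the test: 1989 (10.2%) were higher with mannose and 2206 (11.3%) lower, so that 47.4% of the calls were rises. With library totals alone 82.9% of the calls were rises (5407 higher, 1113 lower). Among the called genes, 814 (4.16% of genes tested) were at least doubled and 715 (3.65%) at least halved. The 3 treated and 3 untreated libraries did not overlap for 7236 genes (37.0%). The most abundant genes tended down: of the 100 genes with the highest mean level, 67 fell, 2 rose, and the median was -0.57.

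**Figure D1:**
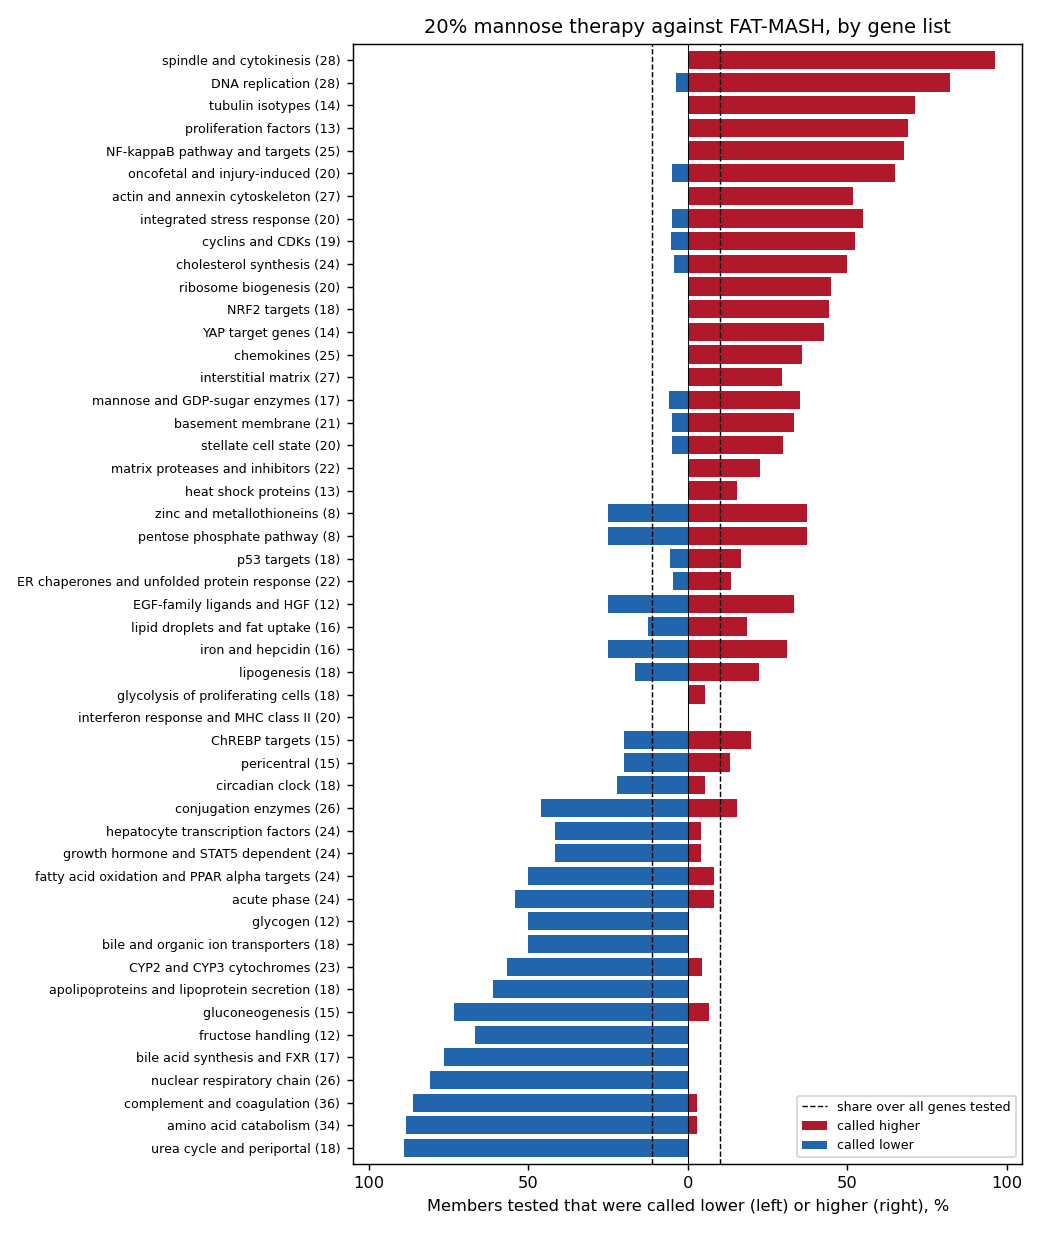
Share of the tested members of each gene list that were called higher (red, right) or lower (blue, left) with 20% mannose therapy, in percent, with the number tested in brackets; dashed lines mark the shares over all genes tested, 10.2% higher and 11.3% lower. Spindle genes stand at one end (27 of 28 higher) and urea cycle and periportal, amino acid catabolism and complement genes at the other (16 of 18, 30 of 34 and 31 of 36 lower).

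Cell division genes rose most. Ccnd1, the cyclin D1 gene, was at 161, 144 and 229 CPM in the 3 treated livers against 11.2, 21.2 and 18.96 in FAT-MASH, a log2 fold change of 3.39 ± 0.30 (adjusted p = 3.20e-07 by edgeR). No treated liver came near the untreated ones, and normal-diet livers had 8.47 ± 1.15 CPM (SD, n = 3). Ccnb1, the cyclin B1 gene of mitotic entry (ENSMUSG00000041431.17, GRCm39 chromosome 13, 100915158 to 100923078), stood at 28.7, 7.94 and 14.3 CPM against 0.267, 0.2397 and 0.282 (5.99 ± 0.62). Cdk1, the kinase that cyclin B1 activates, was at 39.6, 15.02 and 21.3 CPM against 4.27, 3.66 and 4.28 (2.63 ± 0.27). In all 3 genes the groups did not overlap, and the second treated replicate was the lowest of the treated livers. Of 19 cyclin and kinase genes tested, 10 rose and 1 fell, with a median of 1.13. The fall was in Cdkn1c, a cyclin-dependent kinase inhibitor (-1.77 ± 0.40), while Cdkn1a, the p53-induced inhibitor p21, was at 101.3, 87.8 and 77.2 CPM against 93.3, 34.4 and 68.5 and did not pass (0.44 ± 0.33).

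The spindle and cytokinesis genes moved almost as a block: 27 of 28 rose, 0 fell, and their median log2 fold change was 4.02, against 0.001 for all genes. Hmmr, a spindle-binding protein gene (ENSMUSG00000020330.17, GRCm39 chromosome 11, 40592222 to 40624249), had the largest rise among called genes with a mean of at least 5 CPM, from 0.191, 0.2997 and 0.338 CPM in FAT-MASH to 29.3, 9.03 and 17.9 (6.11 ± 0.59, adjusted p = 8.36e-07 by edgeR). Ube2c, the ubiquitin-conjugating enzyme of the anaphase-promoting complex, went from 0.668, 0.479 and 0.845 to 51.4, 15.7 and 21.8 CPM (5.47 ± 0.44), and Cdc20, the activator of that complex, from 0.6297, 0.839 and 1.66 to 68.5, 21.4 and 35.3 (5.35 ± 0.53). For each of them even the lowest treated liver, replicate 2, lay far above the highest FAT-MASH liver. Plk1, a mitotic kinase (5.32 ± 0.65), Cenpf, a kinetochore protein (5.25 ± 0.58), Racgap1 and Prc1, which organise the central spindle (4.63 ± 0.45 and 4.77 ± 0.52), and Knstrn (4.56 ± 0.46) rose alike. Ckap2l, a spindle protein gene, and Iqgap3, a scaffold gene, were also among the 10 steepest rises under the same limits (5.94 ± 0.63 and 5.02 ± 0.50).

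The exception was Pttg1, which encodes securin, the inhibitor of the separase Espl1. Its level was 24.6, 28.9 and 18.03 CPM in treated and 27.3, 24.6 and 24.99 CPM in FAT-MASH livers, and the groups overlapped (-0.11 ± 0.14). In normal-diet livers it was already at 35.8 ± 1.45 CPM, so among these genes it was the one with a high level in livers with little expression of the others.

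**Figure D2:**
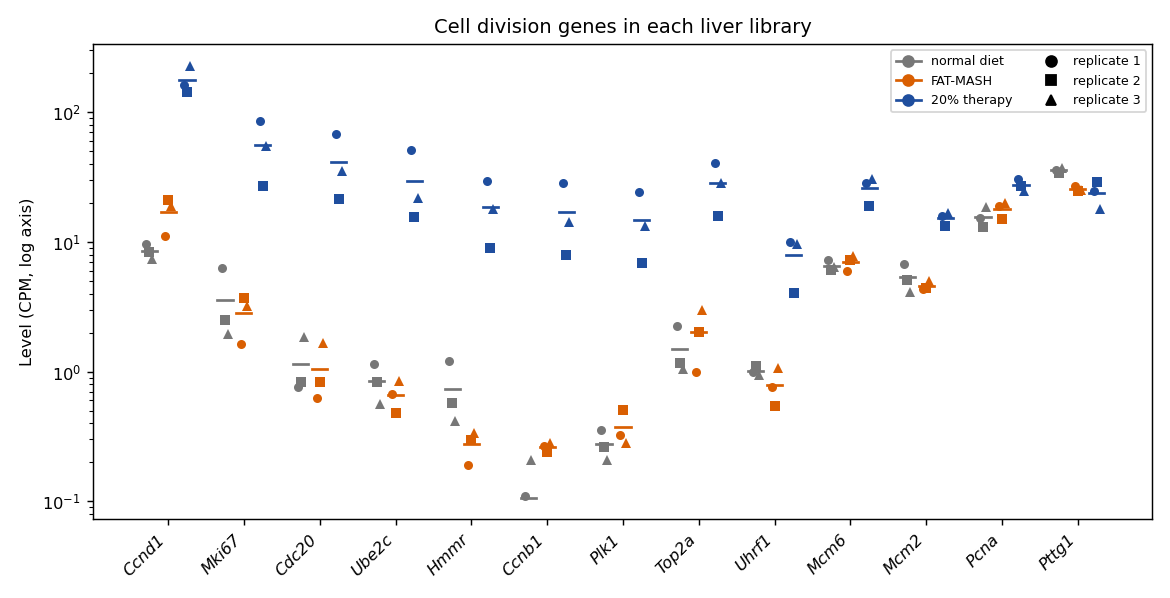
Level (CPM, log axis) of 13 cell division genes in each library of normal diet, FAT-MASH and 20% therapy; symbols mark the replicate and lines the group mean, and 1 normal-diet library with 0 counts of Ccnb1 cannot be drawn on this axis. All 3 treated livers lie above all FAT-MASH livers for every gene shown except Pttg1, and replicate 2 is the lowest treated liver for most of them.

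Late cell cycle promoters carry a short element named CHR (cell cycle genes homology region, TTTGAA), bound by the MuvB complex with B-MYB or FOXM1, often next to CCAAT boxes bound by NF-Y. Promoters of 24 of the 28 spindle genes were matched in RefSeq (GRCm38.p6; 26 promoters of 300 bases, 250 before and 50 after the start). TTTGAA, on either strand, was found in 73.1% of them against 17.9% of all 32851 promoters, CCAAT in 76.9% against 37.4%, and both in 69.2% against 6.95%. CCAAT alone was not particular to this set. In the other lists searched its share ran from 22.2% (NF-kappaB genes) to 84.2% (cholesterol synthesis genes), and that of both motifs from 0.0% to 10.7%. The following stretches of 100 bases before the start show this arrangement in 4 genes that rose, Ube2c, Cdc20, Kif11 (a spindle motor) and Espl1, and its absence in Pttg1, which did not; capitals mark TTTGAA and CCAAT or their reverse complements.
Ube2c, chr2:164769829-164769928, plus strand: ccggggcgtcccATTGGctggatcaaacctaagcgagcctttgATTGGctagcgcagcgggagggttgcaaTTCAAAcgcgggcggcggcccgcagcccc
Cdc20, chr4:118437344-118437443, minus strand: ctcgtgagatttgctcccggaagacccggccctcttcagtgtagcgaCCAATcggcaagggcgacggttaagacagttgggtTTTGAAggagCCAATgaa
Kif11, chr19:37376282-37376381, plus strand: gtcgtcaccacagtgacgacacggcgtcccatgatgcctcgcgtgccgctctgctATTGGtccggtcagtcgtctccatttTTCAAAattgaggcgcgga
Espl1, chr15:102296193-102296292, plus strand: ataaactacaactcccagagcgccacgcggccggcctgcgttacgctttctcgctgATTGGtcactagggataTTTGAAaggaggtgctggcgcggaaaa
Pttg1, chr11:43425982-43426081, minus strand: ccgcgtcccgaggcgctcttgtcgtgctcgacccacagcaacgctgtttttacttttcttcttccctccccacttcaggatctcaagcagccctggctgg
In Ube2c the element ended 24 bases before the start, in Cdc20 13, in Kif11 14 and in Espl1 22, each with CCAAT upstream of it. Kif11 and Espl1 were chosen for their sequence. Of the matched genes that rose, Knstrn, Mad2l1 and Nusap1 had neither motif in the window, nor the variant TTTAAA. A match describes the letters and does not show binding.

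Genes of DNA replication rose as well, with smaller folds: 23 of 28 rose, 1 fell, and the median was 0.99. Mcm6, a subunit of the MCM helicase, was at 28.7, 18.9 and 30.8 CPM in treated livers against 5.99, 7.25 and 7.804 (1.90 ± 0.20), and Mcm5, another subunit, at 14.3, 10.3 and 17.03 against 1.11, 1.32 and 2.54 (3.08 ± 0.37). Mcm2 (1.73 ± 0.24), Mcm3 (1.83 ± 0.21) and the primase gene Prim1 (1.64 ± 0.20) also rose. The largest rise of the list was in Uhrf1, which carries DNA methylation through replication, at 9.995, 4.04 and 9.67 CPM against 0.763, 0.539 and 1.07 (3.31 ± 0.35). Pcna, the sliding clamp, rose by a smaller amount (0.61 ± 0.14). Promoters of these genes differed from the spindle set in their letters: the E2F element TTTCCCGC or TTTGGCGC was in 35.7% of the 28 promoters matched (23 genes), in 0 of 26 spindle promoters and in 1.56% of all promoters. Mcm6 carries TTTGGCGC in 2 places, in capitals below, in the 120 bases before the start.
Mcm6, chr1:128359706-128359825, minus strand: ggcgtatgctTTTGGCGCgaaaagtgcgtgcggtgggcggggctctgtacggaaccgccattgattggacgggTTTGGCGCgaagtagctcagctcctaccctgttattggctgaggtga

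Among the transcription factors of proliferation, 9 of 13 rose and 0 fell (median 1.44), and 5 rose when FAT-MASH replicate 3 was left out. Mybl1, a MYB family factor, went from 2.86, 2.76 and 2.73 to 35.02, 18.2 and 19.6 CPM (3.12 ± 0.27), Foxm1 from 0.229, 0.569 and 0.902 to 13.9, 4.82 and 9.98 (4.11 ± 0.59). Mki67, the Ki-67 gene used as a mark of cycling cells, reached 85.8, 27.2 and 54.7 CPM against 1.64, 3.72 and 3.21 (4.31 ± 0.51), and Top2a, topoisomerase II alpha, 40.9, 15.997 and 28.7 against 0.992, 2.04 and 2.99 (3.85 ± 0.40). The groups did not overlap in any of these 4 genes. E2f1 had a smaller difference (0.91 ± 0.23; adjusted p = 0.053 without 20% therapy replicate 1 by edgeR). Of 12 genes of EGF-family and HGF signalling 4 rose and 3 fell. The rises were in ligands: Areg (amphiregulin, 4.56 ± 0.78), Btc (betacellulin, 1.47 ± 0.30), Hgf (hepatocyte growth factor, 1.11 ± 0.24) and Tgfa (0.68 ± 0.15). Hgfac, the protease that activates HGF, fell from 254, 259 and 228 to 104, 110.2 and 98.1 CPM (-1.25 ± 0.15). The receptors Met, of HGF (-0.53 ± 0.10; lost with library totals), and Erbb3 (-0.62 ± 0.21; lost with library totals and without any library but treated replicate 3) fell too.

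Tubulin genes rose in 10 of 14 cases with 0 falls (median 1.53), and here replicate 2 did not stand apart. Tubb5 was at 185, 182 and 181 CPM in treated and 82.02, 78.2 and 78.8 in FAT-MASH livers (1.20 ± 0.10), Tuba1b at 117, 98.2 and 96.7 against 39.9, 41.9 and 36.7 (1.39 ± 0.10), and Tubb2b at 14.8, 14.6 and 13.9 against 2.004, 2.07 and 1.75 (2.89 ± 0.22). Tubb2a, at 744, 1077 and 721 CPM against 163, 162 and 171 (2.36 ± 0.19; ENSMUSG00000058672.8, GRCm39 chromosome 13, 34258257 to 34261990), was highest in replicate 2. Per kilobase of transcript, Tubb2a had the highest level of the isotypes named here in treated livers, 526 CPM per kb, followed by Tubb4b with 135 and Tuba1c with 66.2. Tuba4a, an isotype of differentiated cells, did not pass (0.04 ± 0.16). Isotype genes are similar in sequence and reads shared by several places in the genome were dropped, so their levels are uncertain.

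The treated livers differed among themselves in cell division. Replicate 2 was the lowest of the 3 treated livers for 27 of 28 spindle genes, with a median log2 difference of -1.18 from the mean of the other two, while over all 14192 genes with a mean of at least 1 CPM it was lowest for 32.9% and highest for 40.0%, with a median of 0.03. It was also lowest for 11 of 11 cholangiocyte markers (-1.18), 25 of 27 interstitial matrix genes (-1.04), 18 of 20 basement membrane genes (-0.78), 9 of 12 Kupffer cell markers (-0.81) and 21 of 26 replication genes (-0.39). It was highest for 14 of 17 NRF2 targets (0.41), 27 of 36 complement and coagulation genes and 21 of 26 respiratory chain genes (0.13). The medians of tubulin (-0.03) and NF-kappaB genes (-0.01) were near that of all genes. The lists named here were picked after the values were seen. Without this library the spindle list still had 27 of 28 members higher and the replication list 23.

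**Figure D3:**
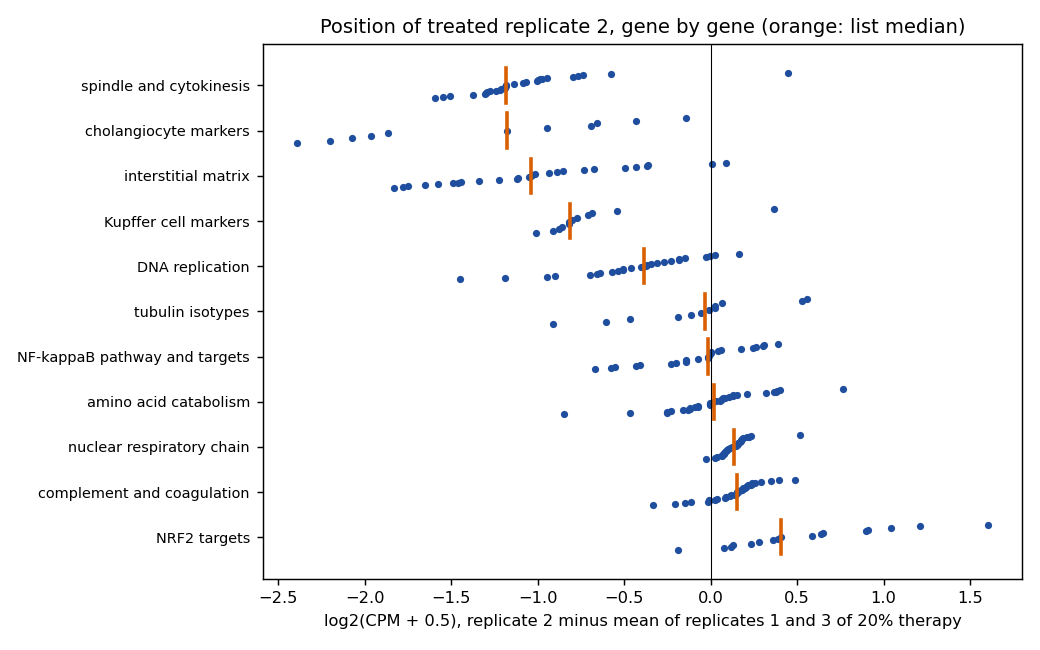
For each gene of 11 lists, the level in replicate 2 of 20% therapy minus the mean of replicates 1 and 3, as log2(CPM + 0.5), with an orange line at the list median. Spindle genes and cholangiocyte markers centre at -1.18, tubulin genes at -0.03 and NRF2 targets at 0.41.

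Genes linked to injury and to fetal or progenitor-like states of hepatocytes rose in 13 of 20 cases, with 1 fall (median 1.40). Sprr1a, a cornified envelope gene (ENSMUSG00000050359.8, GRCm39 chromosome 3, 92391259 to 92393202), went from 0.305, 0.2997 and 1.46 to 28.2, 30.04 and 16.5 CPM (5.20 ± 0.91). Its counts were 0 in the 3 normal-diet livers, so the treated level was at least 281-fold higher, taking 3 counts per library as the floor, which covers counting error only. Ly6d was at 197, 231 and 251 CPM against 31.9, 65.1 and 89.7 (1.86 ± 0.31) and the annexin gene Anxa2 at 179, 191 and 235 against 41.8, 46.3 and 60.8 (2.02 ± 0.26). Peg10, an imprinted gene of placenta and fetal liver, rose by 2.42 ± 0.22 on the log2 scale, and Sox4, a progenitor transcription factor, by 1.90 ± 0.31. The fall was in another imprinted gene, H19, a non-coding RNA (ENSMUSG00000000031.18, GRCm39 chromosome 7, 142129262 to 142131886), which had 1.78, 0.1302 and 0.627 CPM in treated and 4.33, 28.3 and 40.1 CPM in FAT-MASH livers (-4.83 ± 0.97). It was the largest fall among called genes with a mean of at least 5 CPM, under the same limits as for Hmmr. Its spread was wide in both groups. Afp, alpha-fetoprotein, did not pass (-0.39 ± 0.26). Vmn2r3, annotated as a vomeronasal receptor (ENSMUSG00000091572.10, GRCm39 chromosome 3, 64164636 to 64197130), rose from 0.229, 0.2997 and 0.6198 to 24.97, 13.6 and 9.32 CPM (5.40 ± 0.71) and had 0 counts in normal-diet livers, a level at least 180-fold higher than that floor. Counting used no strand, so reads of an overlapping transcript cannot be told apart from its own.

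The cytoskeleton shared in the rise, with 14 of 27 actin and annexin genes higher and 0 lower (median 0.69). Anxa2 and Anxa5 are on this list and on that of injury genes above. Tagln2, an actin-binding protein gene, was at 111, 91.5 and 112 CPM against 30.5, 32.3 and 31.8 (1.73 ± 0.16), Anxa5 at 404, 453 and 489.99 against 144, 158 and 183 (1.47 ± 0.16), and Actb, beta-actin, at 1155, 1242 and 1116 against 705, 731 and 663 (0.74 ± 0.12). In all 3 the groups stood apart. Of 14 target genes of YAP, the growth-control coactivator, 6 rose and 0 fell (median 0.86), led by Ajuba (2.13 ± 0.17), Ankrd1 (3.06 ± 0.62) and Birc5, a mitotic gene that is also on the spindle list (3.65 ± 0.44).

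Matrix genes moved unevenly. Of 27 interstitial matrix genes 8 rose and 0 fell (median 0.73), a count that was 2 without treated replicate 3, 14 without treated replicate 2, 5 without treated replicate 1 and 4 without any 1 of the 3 FAT-MASH libraries. Col1a1, the main fibrillar collagen gene of scar, was at 90.2, 36.7 and 150.5 CPM in treated and 27.4, 44.4 and 41.6 CPM in FAT-MASH livers (1.29 ± 0.53, adjusted p = 0.0908 by edgeR). Replicate 2 lay within the untreated range, and without it the adjusted p was 0.028. Col1a1 also passed with library totals as scaling, with only the compared groups fitted, with limma voom and without the filter on low counts. Thbs1, thrombospondin 1, at 12.7, 10.9 and 19.04 CPM against 3.63, 5.18 and 5.75 (1.56 ± 0.38), and Vcan, versican, at 2.21, 1.74 and 2.58 against 0.382, 0.4195 and 0.507 (2.32 ± 0.55), did not overlap between the groups. Basement membrane genes were higher in 7 of 21 cases and lower in 1 (median 0.65): Nid1, nidogen 1, was at 92.6, 76.6 and 103 CPM against 26.8, 22.9 and 34.6 (1.69 ± 0.19) and Lamc1, a laminin chain, at 44.96, 42.7 and 46.3 against 21.4, 24.9 and 22.96 (0.95 ± 0.14), while Col18a1, a collagen that hepatocytes also make, fell (-0.73 ± 0.15). Adamts1, a secreted metalloprotease gene, was at 47.8, 47.4 and 43.3 CPM against 13.5, 13.1 and 12.1 (1.84 ± 0.20), Mmp7, a protease of epithelia, at 11.5, 1.89 and 11.3 against 0.496, 0.539 and 0.535 (3.97 ± 0.62). Of 22 protease and inhibitor genes 5 rose and 0 fell, 8 without treated replicate 2. Acta2 (1.06 ± 0.51) and Timp1 (1.44 ± 0.57) did not pass, though both did without the filter on low counts, and Timp1 also with library totals, only the compared groups or voom. Among 20 genes of stellate cell state 6 rose and 1 fell, and 2 or 3 rose when treated replicate 3 or FAT-MASH replicate 1 or 3 was left out.

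Markers of bile duct cells moved with the matrix genes. Of 12 cholangiocyte markers 8 rose and 0 fell, and their summed level was 709, 293 and 933 CPM in treated livers against 196 to 216 in FAT-MASH. Epcam was at 25.6, 6.16 and 35.4 CPM against 2.86, 2.697 and 4.17 (2.79 ± 0.48) and Spp1, osteopontin, at 486, 135 and 668 against 79.2, 74.5 and 94.7 (2.38 ± 0.44), whereas Krt19, the duct keratin, named after its values were seen, did not pass (0.41 ± 0.45). Spp1, which is also on the list of macrophage markers, made up the larger part of the sum in treated replicates 1 and 3. The other cholangiocyte markers together were also higher in treated livers, by a smaller factor. Of 14 stellate cell and fibroblast markers 4 rose and 1 fell, with 0 to 7 rising when single libraries were left out (0 without treated replicate 3, 1 without FAT-MASH replicate 1, 2 without FAT-MASH replicate 3, 7 without treated replicate 2). Their summed level was 634 to 1231 CPM in treated and 589 to 753 in FAT-MASH livers, and these ranges overlapped. The part of both marker lists in the rises of matrix and injury genes was not tested. In whole tissue, fewer cells of a type and less RNA per cell cannot be told apart, here and for every gene group below.

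Genes of the NF-kappaB pathway, the main transcriptional route of inflammatory signals, rose in 17 of 25 cases with 0 falls (median 0.88). Among its subunits, Relb was at 18.8, 17.3 and 15.9 CPM against 5.99, 6.77 and 5.63 (1.5 ± 0.23) and Nfkb2 at 35.1, 37.8 and 26.6 against 10.7, 14.7 and 11.8 (1.42 ± 0.23), both of the non-canonical branch, and Rela had a smaller rise (0.55 ± 0.11). Of the targets, Il1rn, the antagonist of the interleukin 1 receptor, was at 33.5, 24.2 and 24.1 CPM against 6.202, 4.49 and 7.69 (2.15 ± 0.34), Cd14, a lipopolysaccharide co-receptor, at 34.5, 39.7 and 26.5 against 7.29, 6.41 and 10.5 (2.06 ± 0.34), and Bcl3, a nuclear IkB protein, at 64.8, 64.2 and 49.8 against 26.01, 34.7 and 24.4 (1.07 ± 0.17). None of these overlapped between the groups. Nfkbia, the classical feedback inhibitor, did not pass (-0.26 ± 0.17). The 10-base kappaB consensus of the RelA and p50 dimer, printed in capitals below in its reverse complement, was present in 3 of 27 promoters of these genes (11.1%; 21 genes matched) and in 0.155% of all promoters. Csf1, the macrophage growth factor (0.95 ± 0.21, named for its sequence), holds it 145 to 154 bases before the start.
Csf1, chr3:107760570-107760649, minus strand: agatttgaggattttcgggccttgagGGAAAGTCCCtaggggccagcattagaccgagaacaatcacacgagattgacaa

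Chemokine genes rose for 9 of 25 members and fell for 0 (median 1.07). Ccl2, which recruits monocytes, was at 13.3, 11.5 and 6.33 CPM against 2.21, 2.46 and 2.73 (2.08 ± 0.47), and Cxcl5, which recruits neutrophils, at 10.8, 6.51 and 4.17 against 0.153, 1.02 and 0.394 (3.82 ± 0.77). Among markers of the recruited cells, 3 of 9 neutrophil markers tested rose (1 without any of 5 libraries, all but treated replicate 3, and 2 falling with DESeq2 or without the filter; summed level 26.4 to 39.3 CPM in treated, 18.2 to 21.1 in FAT-MASH), of 18 recruited or lipid-associated macrophage markers 5 rose and 0 fell (2495 to 2935 against 1488 to 1732 CPM), and of 12 Kupffer cell markers 1 rose (532 to 1238 against 648 to 1041 CPM). The 5 macrophage markers were Cd9, Cd63, Spp1, Plin2 and Cx3cr1 (lost without treated replicate 3 or FAT-MASH replicate 1), of which Spp1 is also on the cholangiocyte list and Plin2 also coats hepatocyte lipid droplets. Spp1 and Plin2 carried the difference in the summed level of this list, and without them the sums of the groups overlapped. The 3 neutrophil markers that rose were S100a8, S100a9 and Cxcr2, while Ltf (-3.25 ± 1.31) and Ngp (-3.98 ± 1.68), of neutrophil granules, had negative values that did not pass. Trem2 (0.07 ± 0.60) and Gpnmb (-0.51 ± 1.02), which mark lipid-associated macrophages, were not called. The Kupffer marker was Marco, at 142, 30.6 and 27.2 CPM against 12.2, 8.9000 and 15.6 (2.44 ± 0.74), a call lost without treated replicate 1 (adjusted p = 0.26 by edgeR) and without FAT-MASH replicate 1 or 2. Of 15 T and NK cell markers (11.6 to 13.7 against 6.56 to 11.4 CPM) 0 passed by edgeR, DESeq2 or voom, with 2 at an unadjusted p under 0.05 and 2 higher with library totals. Of 8 B and plasma cell markers tested (12.4 to 14.6 against 12.6 to 14.3 CPM) 0 passed by these tools, with 0 at an unadjusted p under 0.05, and Tnfrsf17 was at 0. Interferon-response and MHC class II genes were called in 0 of 20 cases by edgeR, DESeq2 or limma voom (median 0.09), with 1 at an unadjusted p under 0.05. With library totals as scaling 4 of these 20 were higher.

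Stress genes rose in some lists and little in others. Of 20 targets of the integrated stress response, which ATF4 drives when translation initiation is curbed, 11 rose and 1 fell (median 1.10). Psat1, of serine synthesis, was at 25.97, 29.2 and 15.4 CPM against 2.61, 1.98 and 3.04 (3.20 ± 0.33), Atf3, a stress-induced factor, at 49.5, 40.6 and 28.3 against 4.77, 5.27 and 7.18 (2.78 ± 0.43), and the hormone gene Fgf21 at 69.04, 60.1 and 38.7 against 23.1, 11.5 and 4.705 (2.08 ± 0.50). The groups stood apart in each. Slc7a11, the cystine transporter, had the largest fold of the list, from 0.878, 0.539 and 1.41 to 12.99, 13.5 and 5.41 CPM (3.49 ± 0.73), and Shmt2, a mitochondrial serine enzyme, fell (-0.61 ± 0.10). Of 18 NRF2 targets 8 rose and 0 fell (median 0.66): Gstm3 was at 824, 974 and 1033 CPM against 169, 211 and 312 (2.03 ± 0.34) and Srxn1, sulfiredoxin, at 248, 438 and 144 against 71.9, 72.2 and 96.4 (1.79 ± 0.37), while Gclc did not pass (-0.43 ± 0.29). Endoplasmic reticulum chaperones and unfolded protein response genes were higher in 3 of 22 cases and lower in 1, with 0 higher without treated replicate 2, 1 without FAT-MASH replicate 2 or 3, and 16 with library totals. The fall was in Herpud1, from 737, 270.00 and 544 to 206, 129.6 and 176 CPM (-1.60 ± 0.27). Of 13 heat shock genes 2 rose, Hsp90aa1 (0.77 ± 0.12) and Bag3 (0.69 ± 0.16). Of 18 p53 targets 3 rose (Gtse1, Btg2 and Tnfrsf10b) and 1 fell (Ei24). Over all genes tested 10.2% rose and 11.3% fell, and the counts of the chaperone, heat shock and p53 lists were not far from these shares. Genes of ribosome assembly rose in 9 of 20 cases (5 without treated replicate 2, 18 with library totals), led by Nop58 at 50.8, 50.4 and 35.6 CPM against 18.3, 16.9 and 16.8 (1.39 ± 0.15).

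**Figure D4:**
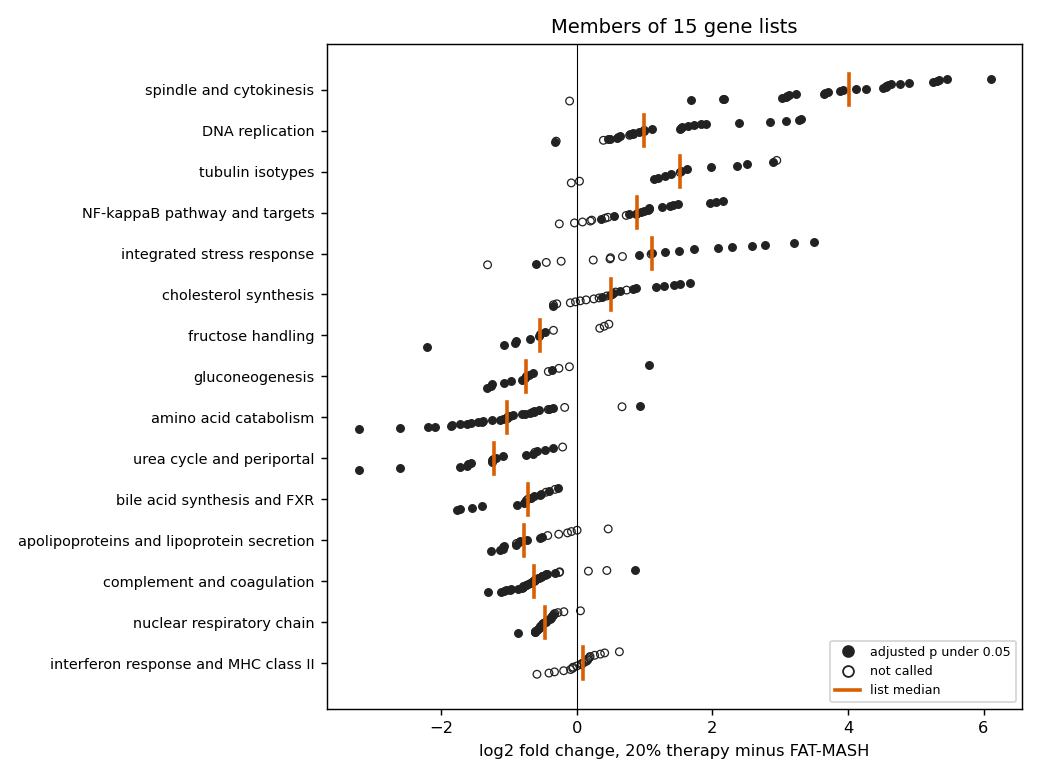
The log2 fold change of each tested member of 15 gene lists, 20% therapy minus FAT-MASH; filled points passed the test, open points did not, and orange lines mark list medians. Medians run from 4.02 for spindle genes to -1.21 for urea cycle and periportal genes, with interferon and MHC class II genes at 0.09.

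Fructose handling genes fell for 8 of 12 members and rose for 0 (median -0.55), 5 and 1 with library totals as scaling. Khk, ketohexokinase, the first enzyme of fructose breakdown (ENSMUSG00000029162.16, GRCm39 chromosome 5, 31078775 to 31088592), was at 356, 489.9 and 336 CPM in treated and 809, 834 and 838 CPM in FAT-MASH livers (-1.07 ± 0.17), and normal-diet livers had 499.6 ± 57.9. Slc2a5, the fructose transporter GLUT5, was at 0.942, 2.45 and 0.941 CPM against 5.23, 6.59 and 8.11 (-2.20 ± 0.36). Sord, which makes fructose from sorbitol, was at 672, 727 and 639 CPM against 1247, 1255 and 1301 (-0.90 ± 0.09). All treated livers lay below all FAT-MASH livers in these 3 genes. Tkfc, triokinase, did not pass (-0.34 ± 0.15), but fell with voom, without the filter and without treated replicate 2.

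Of the enzymes that handle mannose itself 6 of 17 rose and 1 fell (median 0.12), where over all genes tested 10.2% rose and 11.3% fell. Mpi was at 17.6, 13.002 and 14.5 CPM against 11.7, 8.45 and 9.33 (0.61 ± 0.15), with the lowest treated liver just above the highest untreated one. Gmds, the first enzyme from GDP-mannose to GDP-fucose, was at 3.17, 3.104 and 4.19 CPM against 0.916, 1.65 and 1.69 (1.31 ± 0.31). Pmm1 was at 2.42, 8.73 and 2.44 CPM against 1.72, 1.56 and 1.24 (1.58 ± 0.43), a call that was lost with voom and without treated replicate 2 (adjusted p = 0.18 by edgeR). Pmm2 fell slightly (-0.32 ± 0.10), and the call was lost with library totals, without the filter, or without any of 4 libraries (replicates 2 and 3 of 20% therapy, 1 and 2 of FAT-MASH). Without FAT-MASH replicate 2 or treated replicate 2 the list had 3 rises, and with library totals 10.

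Gluconeogenesis, the making of glucose from amino acids and lactate, fell for 11 of 15 members and rose for 1 (median -0.75). Pck1, the cytosolic PEP carboxykinase, was at 561, 777 and 936 CPM against 2008, 996 and 2414 (-1.25 ± 0.25), Slc37a4, the glucose 6-phosphate transporter, at 103, 106 and 61.3 against 266, 177 and 235 (-1.33 ± 0.21), and Fbp1, fructose bisphosphatase, at 668, 666 and 681 against 988, 1183 and 1227 (-0.75 ± 0.13). The 1 rise was in Pck2, the mitochondrial form, at 35.7, 28.3 and 34.3 CPM against 14.5, 16.1 and 16.6 (1.06 ± 0.13). So the cytosolic and mitochondrial forms moved in opposite directions, each without overlap between the groups. Glycogen genes fell for 6 of 12 members and rose for 0 (median -0.57), among them Pygl, liver phosphorylase (-0.94 ± 0.12), Gys2, liver glycogen synthase (-0.77 ± 0.11), and Ppp1r3c, a glycogen-targeting subunit (-1.35 ± 0.21). Mlxipl, which encodes the sugar sensor ChREBP, fell from 783, 594 and 392 to 200.2, 243 and 193 CPM (-1.47 ± 0.20), and in the list of 15 genes made of it and its targets 3 rose (Acly, Fasn and Fgf21) and 3 fell (Mlxipl itself, Khk and G6pc, whose call was lost with DESeq2, with library totals and without any 1 library), with 1 rising without treated replicate 3 or FAT-MASH replicate 1 and 5 without FAT-MASH replicate 2. Pklr, a classical target, did not pass (-0.49 ± 0.21), but fell with voom and without the filter. Of 18 glycolytic genes of proliferating cells 1 rose, Pfkp, at 13.8, 20.8 and 13.5 CPM against 8.93, 6.92 and 6.73 (1.09 ± 0.21), with 3 rising without FAT-MASH replicate 3 and 9 with library totals. In the pentose phosphate pathway 3 of 8 rose, Pgd (0.93 ± 0.18), Rpia (1.05 ± 0.24) and G6pdx (0.65 ± 0.15), with 2 falls that were lost without treated replicate 1 or FAT-MASH replicate 2 or with library totals.

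Lipogenic genes did not move as a group, with 4 of 18 higher and 3 lower (median 0.15), and 2 higher without treated replicate 3 or FAT-MASH replicate 1, 7 without FAT-MASH replicate 2 and 10 with library totals. Pnpla3, a lipid droplet protein whose human gene carries a fatty liver risk variant, was at 8.77, 7.64 and 7.95 CPM against 1.03, 2.13 and 0.958 (2.58 ± 0.35), and Scd2 at 105.1, 43.2 and 69.8 against 17.96, 33.6 and 27.4 (1.47 ± 0.27), while Dgat2, the last step of triglyceride synthesis, fell (-0.81 ± 0.12). Scd1, the main desaturase of liver, was at 21289, 23926 and 24911 CPM against 15829, 27519 and 21142 (0.12 ± 0.19), and Srebf1 did not pass (-0.31 ± 0.31). Fasn, fatty acid synthase, was called higher (0.89 ± 0.29), but FAT-MASH livers ranged over 413, 1035 and 606 CPM and the call was lost without any of 4 libraries (treated replicates 2 and 3, FAT-MASH replicates 1 and 3). Of 16 genes of lipid droplets and fat uptake 3 rose and 2 fell (median -0.24). Cidec, which enlarges droplets, was at 68.9, 103 and 96.9 CPM against 8.43, 11.1 and 12.3 (3.08 ± 0.51), and Plin2 at 1214, 1838 and 1374 against 719, 912 and 664 (0.95 ± 0.19), and Hilpda, an inhibitor of lipolysis, rose too (1.62 ± 0.22). The 2 falls were in the lipases Lipe (-0.92 ± 0.15) and Pnpla2 (-0.40 ± 0.12), the latter lost with library totals and without treated replicate 1 or 2 or FAT-MASH replicate 1.

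Cholesterol synthesis genes rose for 12 of 24 members and fell for 1 (median 0.50), 7 rising without FAT-MASH replicate 1. Sqle, squalene epoxidase, was at 15.996, 19.4 and 16.96 CPM against 4.14, 5.93 and 6.45 (1.67 ± 0.25). All treated livers exceeded all FAT-MASH livers. Against normal diet, where Sqle was at 128 ± 10.4 CPM, 23 of the 24 genes were lower in treated livers (median -1.85; over all genes 16.7% were lower). Abcg5 and Abcg8, which form the sterol exporter into bile, moved the other way: Abcg5 was at 84.1, 75.1 and 93.1 CPM against 318, 244 and 271 (-1.72 ± 0.25) and Abcg8 at 61.1, 71.8 and 88.5 against 273, 202 and 270.1 (-1.75 ± 0.25). Normal-diet livers had 57.5 ± 11.7 CPM of Abcg5 and 76.96 ± 17.4 of Abcg8, and neither gene passed the test between treated and normal-diet livers (0.55 ± 0.25 and -0.06 ± 0.25).

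Fatty acid oxidation and PPAR alpha targets fell for 12 of 24 members and rose for 2 (median -0.33), 3 and 5 with library totals as scaling. Acaa2, a thiolase, was at 746, 851 and 809 CPM against 1254, 1254 and 1216 (-0.63 ± 0.09). The 2 rises were in Acot1, a thioesterase (1.20 ± 0.22), and Pdk4, the kinase that shuts pyruvate dehydrogenase, at 41.3, 67.9 and 103 CPM against 16.4, 25.7 and 18.5 (1.81 ± 0.37). Apolipoproteins and secretion factors fell for 11 of 18 members and rose for 0 (median -0.79): Apoa2 was at 3511, 3940.2 and 3449 CPM against 8854, 7471 and 6595 (-1.07 ± 0.13), Apoe at 15775, 19154 and 17696 against 33521, 34006 and 30709.5 (-0.90 ± 0.12) and Lipc, hepatic lipase, at 95.3, 114 and 103 against 257, 256 and 239 (-1.27 ± 0.10). Apoa1 did not pass (-0.08 ± 0.16). With library totals 8 of the 18 fell and 2 rose.

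Bile acid genes fell for 13 of 17 members and rose for 0 (median -0.72; 9 and 0 with library totals). Slc27a5, the bile acid CoA ligase, was at 339, 475 and 330.1 CPM against 1109, 1124 and 1094 (-1.54 ± 0.13), Akr1d1, the steroid reductase of the pathway, at 76.7, 58.5 and 59.6 against 188, 209.8 and 265 (-1.77 ± 0.16), and Nr1h4, the receptor FXR, at 77.3, 81.9 and 79.6 against 143, 146 and 120.1 (-0.78 ± 0.10). Nr0b2, the FXR target SHP, also fell (-1.40 ± 0.22), while Cyp7a1, the rate-limiting enzyme, was at 66.1, 61.2 and 79.4 CPM against 67.2, 109 and 165 and did not pass (-0.72 ± 0.29; adjusted p = 0.02 without FAT-MASH replicate 1 by edgeR). Transporters fell for 9 of 18 members and rose for 0 (median -0.66), among them Slc10a1, the bile acid importer NTCP, at 135, 225 and 145 CPM against 531, 591 and 556 (-1.73 ± 0.17), and Slc22a7, an organic anion transporter, at 4.42, 4.78 and 5.83 against 17.98, 42.1 and 54.5 (-2.93 ± 0.43).

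Drug-metabolising genes were mostly lower. Of 23 CYP2 and CYP3 family genes and their receptors 13 fell and 1 rose (median -0.62), the rise being in Cyp2c38 (1.06 ± 0.37), a call lost with DESeq2 and without any library but FAT-MASH replicate 1. Cyp2c54 was at 10.2, 17.6 and 7.602 CPM against 181, 78.8 and 131 (-3.47 ± 0.33), and Cyp2c50 at 53.97, 74.7 and 51.5 against 446, 264 and 420.2 (-2.65 ± 0.23). Cyp2e1, the pericentral enzyme that activates carbon tetrachloride, was at 1158, 1417 and 1689 CPM against 5141, 4265 and 4589.9 (-1.71 ± 0.17). Cyp3a11, the main drug-induced CYP3A enzyme, did not pass, with 6125, 4539 and 5628 CPM against 6388, 4954 and 5434 (-0.04 ± 0.18). Conjugation enzymes split, with 12 of 26 lower and 4 higher (median -0.65): Sult2a8, a bile acid sulfotransferase, was at 31.5, 207 and 70.6 CPM against 848, 975 and 939 (-3.16 ± 0.41), and the 4 rises were in Gsta1, Gstm2, Gstm3 and Ugt1a9. The Cyp2c, Sult and Gst genes have close relatives and their shared reads were dropped, so single values within these families are uncertain.

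Nitrogen and amino acid metabolism held the highest shares of falls. Of 18 urea cycle and periportal genes 16 fell and 0 rose (median -1.21; 11 and 0 with library totals). Sds, serine dehydratase (ENSMUSG00000029597.15, GRCm39 chromosome 5, 120614591 to 120621997), was at 21.3, 11.4 and 11.8 CPM against 159, 92.6 and 163 (-3.22 ± 0.32), Hal, histidase, at 88.5, 118 and 53.7 against 515, 522 and 543 (-2.60 ± 0.25), and Otc, the urea cycle enzyme, at 238, 291 and 206 against 693, 742 and 809 (-1.61 ± 0.14). The treated values lay below every FAT-MASH value. Of 34 genes of amino acid catabolism 30 fell and 1 rose (median -1.03; 27 and 2 with library totals). Hpd, of tyrosine breakdown, was at 554, 568 and 584 CPM against 1636, 1782 and 1824 (-1.62 ± 0.12), Gnmt, which consumes S-adenosylmethionine, at 316, 405 and 308 against 1164, 1483 and 1741 (-2.09 ± 0.18), and Tdo2, of tryptophan breakdown, at 521, 629 and 458 against 1946, 1689.6 and 2169.9 (-1.85 ± 0.18). Again no treated liver reached the lowest FAT-MASH liver. The 1 rise was in Acmsd, of the tryptophan pathway, at 21.6, 21.2 and 20.9 CPM against 9.52, 11.5 and 12.4 (0.93 ± 0.20). Against normal diet 34 of 34 were lower in treated livers (median -1.41).

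Pericentral genes showed no common direction, with 3 of 15 lower and 2 higher, where 0 were higher without treated replicate 3 or FAT-MASH replicate 1 or 3, and with library totals 5 were higher and 2 lower. Besides Cyp2e1, Rgn, regucalcin, fell from 1198, 1389 and 1363 to 536, 516 and 657 CPM (-1.21 ± 0.14). Hepatocyte transcription factors fell for 10 of 24 members and rose for 1 (median -0.28), but with library totals as scaling 4 fell, 3 rose and the median was 0.03. Klf15, a factor of amino acid and glucose metabolism, was at 64.01, 53.3 and 67.7 CPM against 193, 152 and 244 (-1.67 ± 0.16) and Cebpa at 254, 315 and 345 against 496, 729.5 and 572 (-0.98 ± 0.13), whereas Onecut1, HNF6, was the 1 rise (1.63 ± 0.52), a call lost with voom and without any library but treated replicate 1. Hnf4a, the master factor of hepatocyte identity, fell by 0.47 ± 0.11 on the log2 scale, a call lost with library totals (adjusted p = 0.19 by edgeR). Of the 10 hepatocyte markers 6 fell and 0 rose, 3 falling with library totals, and their summed level was 83761 to 90339 CPM in treated and 111508 to 121363 in FAT-MASH livers. Alb, albumin, was at 53201, 52899 and 46748 CPM against 75305, 68424 and 67560.1 (-0.47 ± 0.12), also lost with library totals (adjusted p = 0.17 by edgeR). The part of this lower marker level in the falls of hepatocyte genes was not tested.

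Plasma proteins that hepatocytes secrete fell broadly. Complement and coagulation genes fell for 31 of 36 members and rose for 1, C6 (0.86 ± 0.23; lost without treated replicate 2 or FAT-MASH replicate 1), with a median of -0.64 (23 and 2 with library totals). Kng1, kininogen, was at 1257, 1304 and 1097 CPM against 3017, 2583 and 2342 (-1.12 ± 0.12), Plg, plasminogen, at 714, 857 and 839 against 1427, 1531 and 1767 (-0.97 ± 0.12), and C8g at 247, 331 and 255 against 596, 581 and 571 (-1.07 ± 0.13). C3, the central complement component, did not pass (-0.25 ± 0.12). Acute phase genes were lower in 13 of 24 cases and higher in 2, Lcn2 (2.65 ± 0.51) and Apcs (0.41 ± 0.11; lost without treated replicate 1), with a median of -0.53. Saa4 (-1.55 ± 0.15), Serpina3n (-1.24 ± 0.13) and Crp (-0.86 ± 0.11) fell. The list mixes kinds of plasma proteins, Ttr and Ahsg among them, so its counts do not give a direction of inflammation. Growth hormone and STAT5-dependent genes fell for 10 of 24 members and rose for 1, Cish (2.42 ± 0.81; lost with voom and without any library but treated replicate 3), with Ghr, the growth hormone receptor, at 253, 299.99 and 287 CPM against 508, 565 and 559.6 (-0.96 ± 0.11). Of 16 iron genes 5 rose, including Tfrc, the transferrin receptor (1.12 ± 0.24), and Steap4, a ferrireductase (1.13 ± 0.20), and 4 fell, among them Hamp2 (-3.02 ± 0.49), whose near-identical relative Hamp makes it uncertain. Of 18 clock genes 4 fell, among them Hlf, Tef and Cry2, and 1 rose (Bhlhe40, a call lost with DESeq2 and without treated replicate 1 or any FAT-MASH library).

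Subunits of the respiratory chain encoded in the nucleus fell together by modest amounts, 21 of 26 lower and 0 higher, with a median of -0.47. Sdhb, of complex II, was at 148, 158 and 148 CPM against 258, 288 and 287 (-0.87 ± 0.09), Ndufa9, of complex I, at 72.2, 82.98 and 76.6 against 118, 121 and 115 (-0.61 ± 0.08), and Uqcrc1, of complex III, at 187, 213 and 217 against 305, 331 and 312 (-0.62 ± 0.10). With library totals as scaling 8 of the 26 fell.

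The dose comparison set 20% against 5% mannose, both given for the last 6 weeks, in the same fit. It called 3455 genes (17.7%), 1630 higher (8.33%) and 1825 lower (9.33%) at 20%. Spindle genes were higher at 20% in 27 of 28 cases (median 3.60): Hmmr was at 0.744 ± 0.586 CPM (SD, n = 3) in 5% therapy livers (4.74 ± 0.54) and Ccnd1 at 23.3 ± 5.87 (2.93 ± 0.29). Amino acid catabolism was lower at 20% in 27 of 34 cases (median -0.85), with Gnmt at 1004 ± 259 CPM at the lower dose (-1.55 ± 0.18). Khk was at 722 ± 168 CPM at 5% (-0.87 ± 0.17) and Tubb2a at 225 ± 53.6 (1.91 ± 0.19). The doses also differed in Cdkn1a, at 25.6 ± 14.3 CPM at 5% (1.79 ± 0.34), and in Gdf15, a stress hormone, at 17.8 ± 4.402 (1.58 ± 0.25), neither of which passed between 20% therapy and FAT-MASH. In that comparison both were higher without the filter on low counts, and Gdf15 also with library totals or only the compared groups. Of 24 cholesterol synthesis genes 2 were higher at 20% and 4 lower (median 0.14), Sqle among the former (1.06 ± 0.24). Pck1 (0.05 ± 0.25) and Mpi (0.08 ± 0.15) did not pass between the doses, which does not show that the doses act alike. The count of called genes was 2301 without 20% therapy replicate 1, and with library totals as scaling 5627 were called, 84.1% of them higher.

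The timing comparison set 20% therapy against 20% prevention, the same dose begun 6 weeks earlier, and called 16 genes (0.0818%), 5 higher (0.0255%) and 11 lower (0.0562%) with therapy. Higher with the later start were Tuba1b (0.88 ± 0.10), Pck2 (0.72 ± 0.13), Gstp3 (0.59 ± 0.11), the helicase subunit Mcm7 (0.58 ± 0.11) and Tubb5 (0.53 ± 0.10). Lower were Cyp2c50, at 171 ± 26.8 CPM (SD, n = 3) with prevention (-1.51 ± 0.22), Acpp (-1.28 ± 0.24), Tdo2 (-1.21 ± 0.18), Ugt1a1 (-0.83 ± 0.15), Gm9826 (-0.81 ± 0.15), Abca8a (-0.76 ± 0.13), Acsl1 (-0.72 ± 0.12), Slc27a5 (-0.67 ± 0.13), Pon1 (-0.61 ± 0.11), Hrg (-0.61 ± 0.10) and Mreg (-0.60 ± 0.11). Spindle genes were called in 0 of 28 cases by edgeR, with 25 at an unadjusted p under 0.05 and a median difference of 1.23. Hmmr was at 7.47 ± 1.32 CPM with prevention, against 29.3, 9.03 and 17.9 with therapy (1.33 ± 0.44; it passed with voom and without the filter), and the second treated replicate lay close to the prevention livers and the other two above them. The number called depended on the setting, from 0 when only these 2 groups were fitted to 702 without the filter on low counts, and 111 without 20% therapy replicate 2 and 1 without 20% therapy replicate 3. With library totals as scaling it was 183, 88.0% of them higher with therapy, where 31.2% were in the fit with TMM.

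Compared with normal diet, 7057 genes (36.1%) differed in treated livers, 3796 higher (19.4%) and 3261 lower (16.7%), and with library totals as scaling 9091 differed, 82.7% of them higher. These comparisons share the treated libraries, so their values are given side by side and not as separate evidence. Relative to the level in mice without the regimen, the changed genes of therapy lay on both sides. Tdo2, at 1667 ± 153 CPM on normal diet (-1.64 ± 0.18), Gnmt (-2.60 ± 0.18) and Cyp2c50 (-4.35 ± 0.24) were below it in treated livers, and Ccnd1 (4.39 ± 0.31) and Hmmr (4.65 ± 0.54) above it. For Khk (-0.34 ± 0.17), Abcg5 (0.55 ± 0.25), Hamp2 (-0.11 ± 0.49) and Serpina3n (-0.16 ± 0.13), treated livers did not pass the test against normal diet. Khk passed without 20% therapy replicate 2 (adjusted p = 0.023 by edgeR) and Abcg5 with library totals or with only the compared groups fitted.

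**Figure D5:**
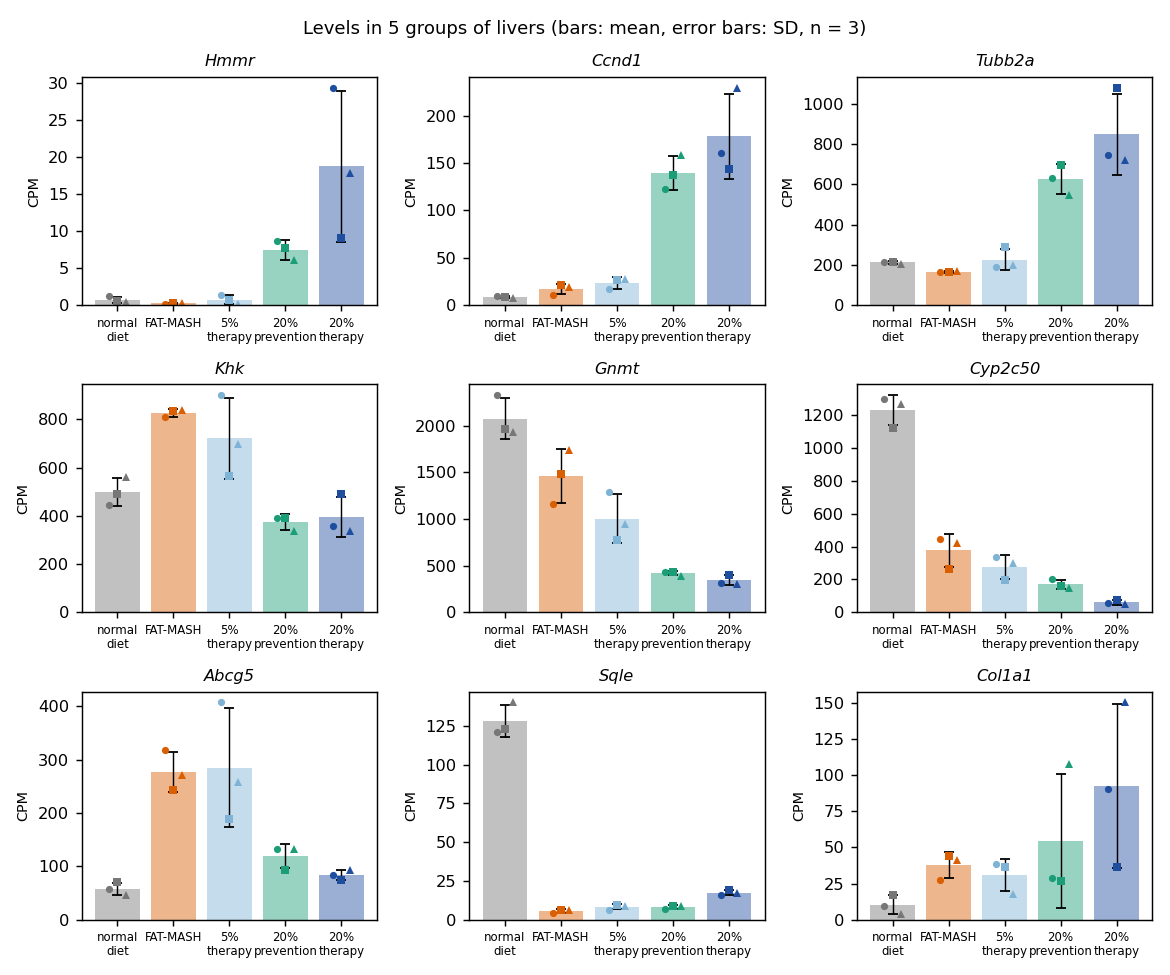
Levels (CPM) of 9 genes in normal diet, FAT-MASH, 5% therapy, 20% prevention and 20% therapy livers; bars are means, error bars SD with n = 3, and symbols single libraries. Hmmr, Ccnd1 and Tubb2a are high in both 20% groups and Gnmt and Cyp2c50 low, Khk and Abcg5 lie below their FAT-MASH level there, and Col1a1 is spread over 36.7 to 150.5 CPM in treated livers.

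The levels of the remaining cell type markers follow, and a level alone does not show that the cell type was present. Bst2, the dendritic cell marker with the highest level, is also on the interferon list. Of 15 sinusoidal endothelial markers 2 fell (Oit3, lost with library totals, and Lyve1, lost with them and without any library but treated replicate 2) and 0 rose (475 to 561 CPM summed in treated, 538 to 616 in FAT-MASH), of 7 erythroid markers 3 fell (285 to 535 against 606 to 708 CPM), and of 10 dendritic cell markers (286 to 301 against 273 to 279 CPM) 0 passed by edgeR, DESeq2 or voom, with 1 at an unadjusted p under 0.05. Of 7 mesothelial markers (median -0.50) 1 rose, Krt7, which is also on the cholangiocyte list, a call lost without treated replicate 1 or 3 or FAT-MASH replicate 1 or 2 (26.8 to 37.8 against 38.4 to 53.8 CPM summed). Msln (-1.15 ± 0.48) and Upk3b (-0.91 ± 0.45), which mark the mesothelium, did not pass, and fell without the filter or with only the compared groups fitted. Of 4 gut epithelium markers tested 2 fell, Fabp2 and Lgals4 (175 to 196 against 240 to 258 CPM; 1 without any other single library, 0 without treated replicate 3 or with library totals), while Vil1 did not pass (1.91 ± 0.72) and rose with DESeq2, voom, library totals, no filter, only the compared groups or without treated replicate 2. Of 2 mast cell and basophil markers tested 0 passed by edgeR (10.5 to 13.4 against 8.23 to 11.9 CPM). The mast cell marker Mcpt4 was at 0, pancreatic markers were at 0 for Cela3b, Cpb1, Prss1 and Pnlip, gut markers for Cdx1, Cdx2 and Sis, and the adipocyte marker Lep was at 0. The other adipocyte markers summed to 7.91 CPM in FAT-MASH replicate 2 and to 0.0554 to 0.225 in the other 5 libraries.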

How the data were processed

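Poly-A RNA from mouse liver was sequenced, and the authors deposited a table of raw whole-number counts, 1 row per gene, per the file headers. Reads were aligned with STAR to GRCm39, per the submitters' processing notes, which name featureCounts 2.0.6, while the header of the table gives version 2.0.1 and GENCODE release 31. The counting command sets no strand and no option for reads aligned to several places (per the file headers). The defaults of featureCounts ignore strand and drop such reads. Of 56980 genes, 52073 carried a symbol. Each of the 25 columns was matched to the sample whose description names that column.

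The test was edgeR 4.0.16 under R 4.3.3 (glmQLFit and glmQLFTest, TMM scaling, filterByExpr, Benjamini-Hochberg adjustment, threshold 0.05, no minimum fold). The 18 libraries of the first batch, with totals of 31298299 to 56010646 counts, were fitted together and share 1 estimate of the spread. Replicates differed by more than sampling noise in every pair (chi-square per degree of freedom at least 19.3). On counts simulated for 20% therapy against FAT-MASH over 18986 genes, 44 of 100 genes changed by 1 on the log2 scale and 63 of 96 changed by 2 were called, with 4 false calls. The simulation planted 200 changes, far fewer than the 4195 genes called in the data. Its rates therefore do not give the sensitivity of the real comparison. Same-numbered libraries of the 2 groups did not deviate together (correlations 0.027, 0.015 and 0.077), so numbers were not taken to pair them.

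The comparison, its members and its 65 gene lists were chosen with earlier results of these data known. Of 1157 list entries, 4 had no match. Lists can share members, so their counts are not separate evidence. Named genes are 30 key genes, the 10 largest rises and 10 largest falls at a mean of 5 CPM or more with no overlap between the groups, 6 for the other comparisons, and per list the 6 members with the smallest p and the 3 with the highest level. Where 5 or fewer genes were counted, they could be named too. Some genes that this rule selects are not reported here. Promoter sequences are from RefSeq on GRCm38.p6 and were matched by symbol. Alternatives were DESeq2 1.42.0, limma 3.58.1 voom with quality weights, RLE size factors, library totals, no filter, only the groups compared, the replicate block and leaving out each library.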

Additional observations from a re-analysis of the deposited data

Results flagged for a closer look

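The response to 20% mannose differed from that to 5% mannose over the same last 6 weeks in 3455 genes (edgeR, adjusted p of the difference under 0.05). It differed from that to 20% mannose over all 12 weeks in 16 genes. The 11 genes lower with the later start had log2 fold changes of -1.51 (Cyp2c50), -1.28 (Acpp), -1.21 (Tdo2), -0.83 (Ugt1a1), -0.81 (Gm9826), -0.76 (Abca8a), -0.72 (Acsl1), -0.67 (Slc27a5), -0.61 (Pon1), -0.61 (Hrg) and -0.60 (Mreg). The 5 higher ones had 0.53 (Tubb5), 0.58 (Mcm7), 0.59 (Gstp3), 0.72 (Pck2) and 0.88 (Tuba1b). Each of these 16 calls was lost under at least 1 alternative, 15 of them without at least 1 single library.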

How the results depend on the processing

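Of 197 genes named in the text and called between 20% therapy and FAT-MASH, 170 passed under all alternatives and none of the 27 others changed sign. Of the 27, 23 were lost on leaving out a library, 11 with library totals and 3 with DESeq2. Of 28 named genes that were not called, 16 passed under at least 1 alternative. With library totals as scaling 6520 genes were called, 5407 higher and 1113 lower, against 4195, 1989 and 2206. The count of called cell type markers was 34 and, without the filter on low counts, 61. Calls in the gene lists numbered 492 and stayed within 1.5 times of that count under all alternatives. Leaving out 1 library gave 3072 to 3770 genes between 20% therapy and FAT-MASH, 2301 to 3308 between 20% and 5% therapy (5627 with library totals, 3455 in the reported fit) and 1 to 111 between 20% therapy and 20% prevention. That last comparison, with 16 calls, gave 398 with DESeq2, 183 with library totals, 702 without the filter, 483 with voom and 0 with only the compared groups fitted, where 2266 of 17946 genes had an unadjusted p under 0.05. The cause of these differences was not tested. With the replicate number as a block, 3988 genes were called against FAT-MASH, 3236 against 5% therapy, 6771 against normal diet and 3 against 20% prevention. The block, which the labels do not tie to a cage or day, ended 1 of these calls against FAT-MASH (Cyp2c38), those of Axin2, Col8a1, Colec11, Lox and Slc30a1, which the rule for named genes also selects, and 13 of 16 against 20% prevention. Precision is limited by 3 libraries a group.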
